A study of Rattus norvegicus with 20 samples.

Results

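The genes described here are those at which the transcription factor NF-kB was listed as bound in rat liver 6 hours after partial hepatectomy, in both diets, and hardly at all before. A gene was taken when it had a listed peak on at least 6 of the 8 arrays of 6h, on at most 1 of the 6 arrays of 0h and on at most 1 of the 6 arrays of 1h, with both diets counted together. The rule found 421 genes, 2.93% of the 14368 genes named in the deposited peak lists. The genes were selected on the listed peak calls of all 20 arrays, so the levels of these genes over time are a description and carry no test. The rule pooled the diets and did not use their difference. It still left every gene with peaks on at least 2 of the 4 arrays of each diet at 6h. Genes bound in a single diet are thus absent, so the comparison of the diets at 6h is not fully separate from the rule.

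The study measured promoter binding of NF-kB by chromatin immunoprecipitation and promoter tiling arrays (ChIP-chip) with a polyclonal antibody against the p65 subunit. Its animals were male wild-type Sprague Dawley rats, 8 to 10 weeks old at the start. For 5 weeks one group drank a liquid diet with 36% of its calories as ethanol, and calorie-matched littermates were given carbohydrate in its place. Every rat underwent 70% hepatectomy, so no group was free of surgery after 0h. The groups were ethanol 0h (3 arrays), carbohydrate 0h (3), ethanol 1h (3), carbohydrate 1h (3), ethanol 6h (4) and carbohydrate 6h (4). The 0h samples were the left lateral and median lobes taken at the operation, and the 1h and 6h samples came from the lobes left behind, so time and lobe cannot be told apart. Liver holds hepatocytes and several other cell types, and an array of whole tissue cannot tell fewer bound cells from weaker binding per cell. DNA binding is no measure of expression, so the tissue was not checked against marker genes.

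NF-kB is a family of dimeric transcription factors that rest in the cytoplasm bound to inhibitor proteins. Cytokines such as tumour necrosis factor release them to the nucleus, where they bind short sequences called kB sites in promoters of inflammatory, survival and acute phase genes. In the regenerating liver this pathway is known for its early activation after resection. Olfactory receptors, the largest group among the genes found here, are G protein-coupled receptors for odorants, made mainly in sensory neurons of the nose. Their genes stand in long clusters of similar copies, each with a short coding region in one exon.

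The 421 genes differed in how fully they met the rule. A peak was listed on all 8 arrays of 6h for 98 of them, on 7 for 136 and on 6 for 187. In all, 2131 genes (14.8% of those in the lists) had a peak on at least 6 arrays of 6h, and most of them were listed on more than 1 array of 0h or 1h. No peak at 0h or 1h was listed for 108 of the 421, and 19 had a peak on all 8 arrays of 6h and none before. One permitted peak at 0h was present for 270 genes and one at 1h for 116. By diet, 98 genes had a peak on all 4 arrays of both groups, 71 on 2 ethanol and 4 carbohydrate arrays, and 31 on 4 ethanol and 2 carbohydrate arrays. A further 210 genes stood just outside, with a peak on 5 of the 8 arrays of 6h.

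Some arrays weighed on the rule more than others. The ethanol arrays of 6h held peaks at 315, 322, 398 and 349 of the 421 genes, and the carbohydrate arrays of 6h at 348, 345, 385 and 396. At 0h, ethanol replicate 3 held 106 and carbohydrate replicate 3 held 132, whereas the other 4 arrays held 4 to 12. Those 2 arrays came from the rats that also gave ethanol 6h replicate 1 and carbohydrate 6h replicate 2. Applied without them, the rule found 1025 genes, including all 421. The 1h arrays held 7 to 52 of the genes, with the highest number in carbohydrate replicate 2. Of the 8 arrays of 6h, 7 were in one array run together with 4 of the 6 arrays of 1h, and carbohydrate 6h replicate 1 was alone in another. All 6 arrays of 0h were in other runs, so 0h and 6h cannot be told apart from array run.

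**Figure D1:**
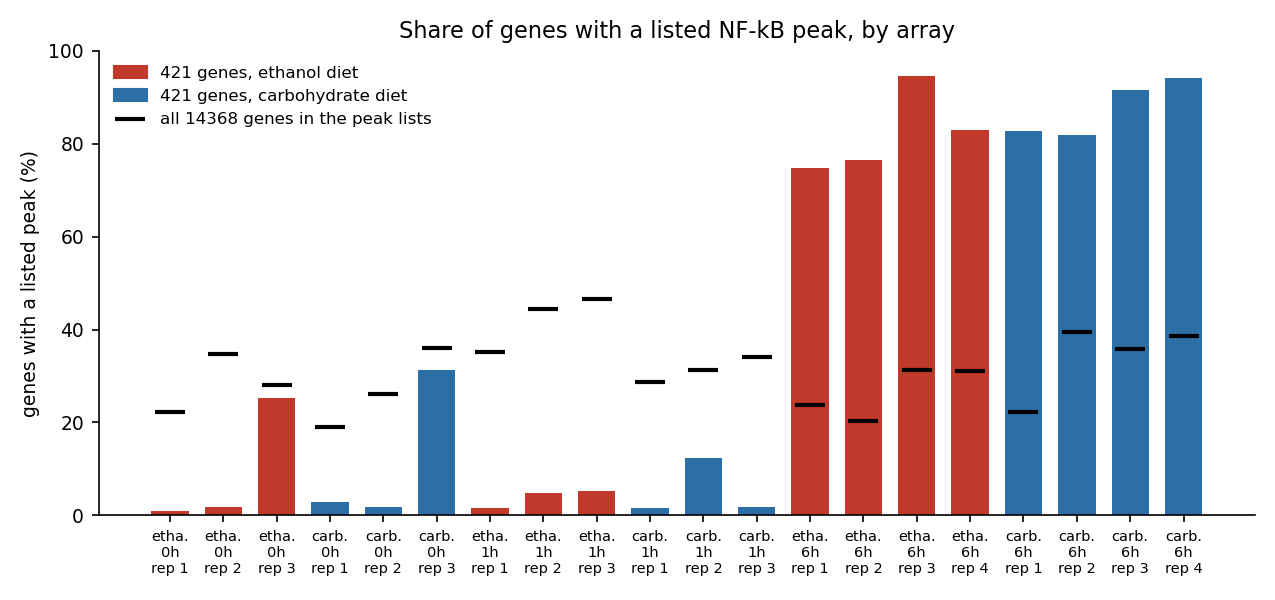
Share of genes with a listed NF-kB peak on each of the 20 arrays (y axis, %), with bars for the 421 genes (ethanol in red, carbohydrate in blue) and black lines for all 14368 genes in the lists. The bars stand between 74.8% and 94.5% on the 8 arrays of 6h, and among the earlier arrays they exceed 25% only on replicate 3 of both groups of 0h.

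Promoter sequences of 7 of the genes show the range of base composition in the group. They cover 250 bases before to 50 bases after the RefSeq start in build GRCr8, written from 5′ to 3′. Capitals mark a match to the kB consensus or the letters TATAAA, each searched on both strands, so that TATAAA also appears as TTTATA. No promoter of the group had a match of one overlapping a match of the other. Or14j5 and Or4a66 are olfactory receptors with very low GC content, and Or52ab2 and the pheromone receptor Vom2r6 had peaks over or beside the start. Adgrf5, an adhesion G protein-coupled receptor, has a promoter of middling GC content. Or52a20 and the growth factor gene Btc were bound on all 8 arrays of 6h and none before. Btc was picked after its values were seen. Both hold a kB match, but the place shared by their peaks lay past the start. It was at 159 to 807 bp for Or52a20 and at 142 to 898 bp for Btc. These distances count from the start given in the deposited lists, whereas the printed bases end 50 past the RefSeq start. If both starts are the same, the matches lie outside these places, but this was not checked.
Or14j5 (chr20:640908-641207, minus strand): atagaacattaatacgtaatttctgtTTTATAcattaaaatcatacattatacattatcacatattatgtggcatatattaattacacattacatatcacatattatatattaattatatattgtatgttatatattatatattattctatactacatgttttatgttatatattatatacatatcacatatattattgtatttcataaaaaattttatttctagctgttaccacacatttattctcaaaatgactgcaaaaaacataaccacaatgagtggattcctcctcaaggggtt
Or4a66 (chr3:94932094-94932393, minus strand): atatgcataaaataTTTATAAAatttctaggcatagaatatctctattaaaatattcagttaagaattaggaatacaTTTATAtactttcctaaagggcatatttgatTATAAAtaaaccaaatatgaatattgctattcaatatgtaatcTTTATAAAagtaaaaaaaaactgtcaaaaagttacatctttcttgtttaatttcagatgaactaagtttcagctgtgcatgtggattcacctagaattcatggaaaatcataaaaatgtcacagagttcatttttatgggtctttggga
Or52ab2 (chr1:167093516-167093815, plus strand): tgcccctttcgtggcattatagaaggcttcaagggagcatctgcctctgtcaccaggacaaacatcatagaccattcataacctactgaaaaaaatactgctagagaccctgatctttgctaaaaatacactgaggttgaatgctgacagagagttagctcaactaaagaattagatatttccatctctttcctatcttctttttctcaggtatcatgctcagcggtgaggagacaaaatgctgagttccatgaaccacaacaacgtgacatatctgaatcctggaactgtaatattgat
Vom2r6 (chr1:3025673-3025972, plus strand): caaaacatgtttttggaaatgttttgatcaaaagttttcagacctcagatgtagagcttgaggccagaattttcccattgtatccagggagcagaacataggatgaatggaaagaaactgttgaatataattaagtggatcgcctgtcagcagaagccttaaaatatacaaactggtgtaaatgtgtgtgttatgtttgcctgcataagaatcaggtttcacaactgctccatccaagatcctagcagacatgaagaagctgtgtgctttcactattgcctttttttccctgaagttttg
Adgrf5 (chr9:25121188-25121487, minus strand): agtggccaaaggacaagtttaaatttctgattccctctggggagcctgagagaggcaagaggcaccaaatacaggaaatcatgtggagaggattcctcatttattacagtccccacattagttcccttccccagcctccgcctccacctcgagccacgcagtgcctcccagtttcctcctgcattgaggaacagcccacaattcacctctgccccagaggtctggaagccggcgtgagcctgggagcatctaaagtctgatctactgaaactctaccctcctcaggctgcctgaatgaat
Or52a20 (chr1:167520128-167520427, plus strand): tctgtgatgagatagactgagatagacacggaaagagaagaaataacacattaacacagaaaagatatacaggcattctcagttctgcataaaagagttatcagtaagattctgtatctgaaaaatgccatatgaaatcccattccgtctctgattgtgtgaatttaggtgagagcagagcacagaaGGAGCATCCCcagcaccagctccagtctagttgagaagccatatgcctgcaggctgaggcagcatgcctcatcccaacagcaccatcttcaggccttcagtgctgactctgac
Btc (chr14:16992418-16992717, plus strand): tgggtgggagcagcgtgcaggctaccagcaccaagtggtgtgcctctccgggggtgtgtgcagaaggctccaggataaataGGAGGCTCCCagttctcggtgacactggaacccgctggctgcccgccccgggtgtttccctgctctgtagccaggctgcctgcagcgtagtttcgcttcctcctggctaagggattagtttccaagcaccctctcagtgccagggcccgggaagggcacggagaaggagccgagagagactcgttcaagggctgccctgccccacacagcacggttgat

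Chemosensory receptors made up most of the genes. Olfactory receptors were 195 of the 421 (46.3%), against 1188 of all 14368 listed genes (8.27%). Vomeronasal and taste receptors, which detect pheromones and tastants, added 24, and trace amine receptors, which detect volatile amines, added 4. The 223 chemosensory genes were 53.0% of the group, against 9.68% of all listed genes. Most olfactory receptors bound at 6h did not meet the whole rule: 642 of the 1188 (54.0%) had a peak on at least 6 arrays of 6h, against 14.8% of all genes. For the vomeronasal and taste receptors this was 93 of 186, and for the trace amine receptors 15 of 17. None of the 3 families had a gene among those bound mainly at 1h. These were 478 of the 14368 listed genes, with a peak on at least 5 of 6 arrays of 1h and at most 1 of 0h and of 6h. For a family as small as the 17 trace amine receptors nothing is read from this.

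**Figure D2:**
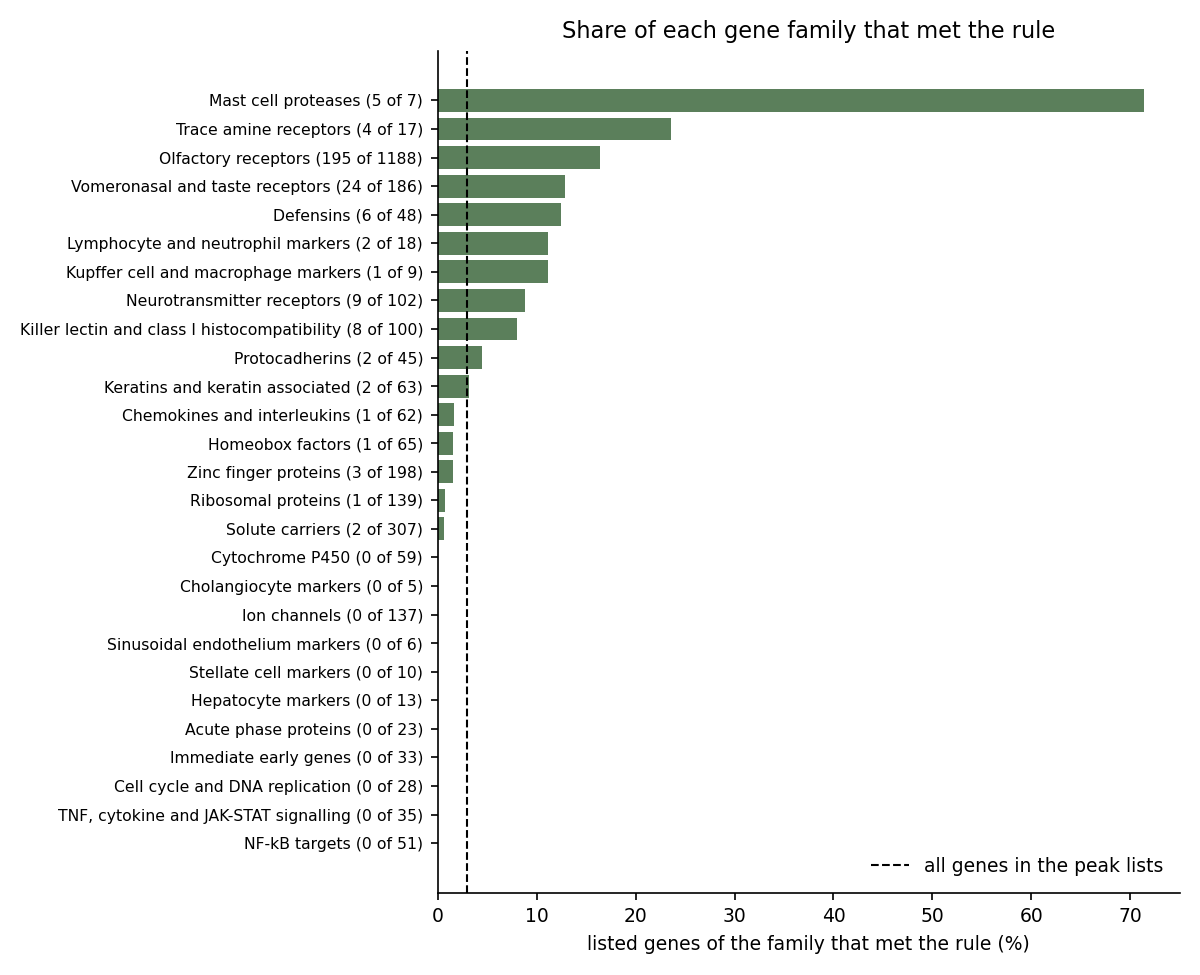
Share of the listed genes of each family or marker list that met the rule (x axis, %), with the number of genes in brackets and the share over all listed genes, 2.93%, as a dashed line. Mast cell proteases and trace amine receptors, which were added as lists after values were seen, and the chemosensory families lie right of the line, and 11 lists had no gene that met the rule.

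Signal is given below as a log2 ratio of both array channels, averaged over the brightest 500 bp window of each promoter, centred on each array's median and turned so that listed peaks are positive. Over the 420 genes with a window, the median of the mean signal was 0.14 at 0h, 0.11 at 1h and 0.47 at 6h. Over all 14540 promoters these medians were 0.18, 0.25 and 0.24. The genes thus stood below the general median at 0h and 1h and above it at 6h, as the rule selected. For 46 of the 420 genes all 8 arrays of 6h were higher than all 12 earlier ones, against 178 of all promoters (1.22%), and since the rule chose the genes on these arrays nothing is read from this. Of these 46, 30 were olfactory receptors, 15.4% of the 195 in the group, against 11.0% of all 420 genes. Genes that were no chemosensory receptor had 11 of 197 (5.58%), and nothing is read from these shares either.

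Or14j5 (Olr1690 in the files) had the highest mean signal of the 19 genes bound on all 8 arrays of 6h and none before. Its lowest, median and highest signals were -0.30, 0.21 and 0.65 at 0h, 0.12, 0.19 and 0.50 at 1h and 0.31, 0.67 and 0.84 at 6h. The 6h arrays averaged 0.65 ± 0.16 (SD, n = 8), and 3 of them lay inside the range of the earlier arrays. Its peaks were centred inside the gene, a median of 486.5 bp past the start (chromosome 20, 581268 to 582187 in the files' coordinates).

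Or52n4c (Olr163) showed no overlap. Its lowest, median and highest signals were -0.30, 0.17 and 0.28 at 0h, -0.052, 0.19 and 0.36 at 1h and 0.44, 0.63 and 0.85 at 6h. Or12e9 (Olr559) and Or6k6 (Olr1592) were also apart, with 6h signals of 0.44, 0.53 and 0.71 for Or12e9 as lowest, median and highest, and 0.31, 0.52 and 0.59 for Or6k6. The highest signal on any of the 12 earlier arrays was 0.20 for Or12e9 and 0.30 for Or6k6. In Or52ab2 (Olr88), whose peaks were centred at the start, the signals were -0.22, 0.015 and 0.33 at 0h, -0.24, 0.054 and 0.17 at 1h and 0.35, 0.49 and 0.61 at 6h, again with all 8 arrays of 6h above the rest.

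Or52a20 (Olr122), one of the kB-bearing promoters printed above, had signals of -0.23, 0.28 and 0.54 at 0h, -0.082, 0.056 and 0.51 at 1h and 0.39, 0.60 and 0.69 at 6h. The overlap came from replicate 3 of both groups of 0h and from carbohydrate 1h replicate 2. Or4a66 (Olr654), whose promoter holds 6 TATAAA matches with some overlapping, had signals of 0.37, 0.58 and 0.64 at 6h, with -0.28, 0.14 and 0.24 at 0h and -0.22, 0.11 and 0.37 at 1h. Its groups overlapped by a single array of 6h, which lay just below the highest array of 1h.

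The strongest olfactory signals belonged to genes outside those 19. Or2a14 (Olr816) averaged 0.78 ± 0.33 at 6h (SD, n = 8) with peaks on 6 arrays, placed at a median of -3350 bp from the start (negative is upstream). Or4k48 (Olr769) averaged 0.71 ± 0.15, Or7g23b (Olr1115) 0.69 ± 0.15 and Or4k48b (Olr775) 0.68 ± 0.14. Or4k48 was already high on some arrays before hepatectomy, with signals of 0.03, 0.47 and 0.60 at 0h and -0.036, 0.18 and 0.44 at 1h. All 8 arrays of 6h were above all earlier ones for Or7g23b, but not for the 2 Or4k48 genes or Or2a14.

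Among the vomeronasal receptors, Vom2r6 had the highest mean 6h signal of all 420 genes. Its lowest, median and highest signals were -0.17, 0.12 and 0.70 at 0h, -0.41, -0.30 and 0.14 at 1h and 0.56, 0.85 and 1.32 at 6h, a mean of 0.90 ± 0.28 (SD, n = 8) at 6h. The only overlap was with carbohydrate 0h replicate 3, the array that held the most peaks of these genes at 0h. Its neighbour Vom2r5 averaged 0.74 ± 0.11 at 6h with no overlap, although its window lay outside the place shared by its peaks. Vom2r33 averaged 0.66 ± 0.16, with all 8 arrays of 6h above the rest, and V1rc36 averaged 0.61 ± 0.20, with overlap.

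**Figure D3:**
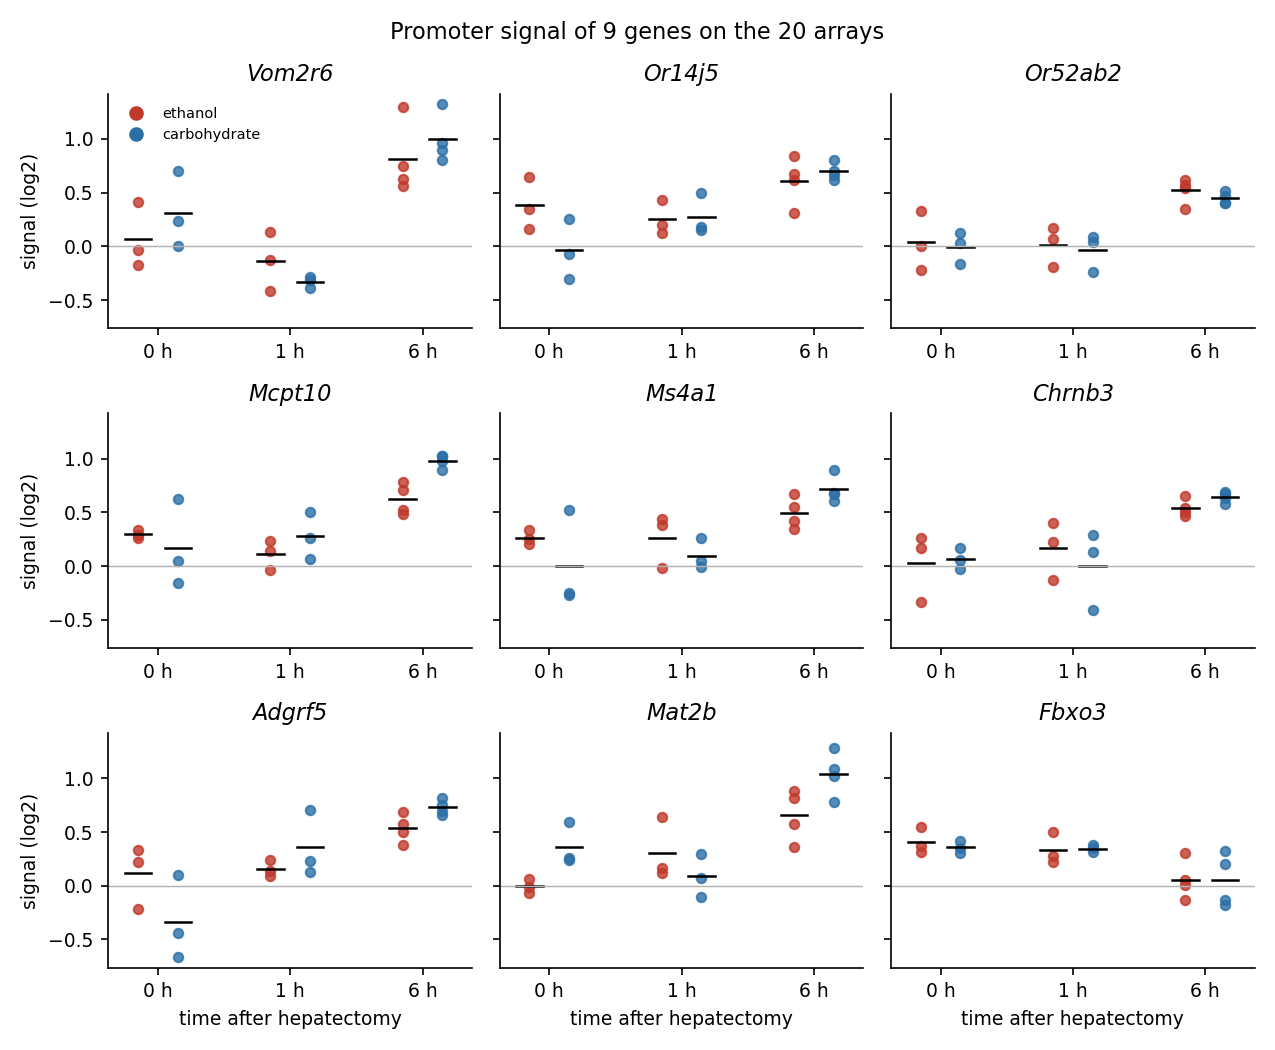
Promoter signal (y axis, log2, array median at 0) of 9 genes at 0, 1 and 6 hours on each array, ethanol in red left of carbohydrate in blue, with a black line at each group's mean. The 6h points lie above the earlier ones in Or52ab2 and Chrnb3, overlap in the other 7, and lie mostly below the earlier ones in Fbxo3.

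Many of the genes stood next to each other. When genes within 200 kb were linked, 83 of them fell into 13 clusters of at least 5, and 11 of these clusters consisted of olfactory receptors alone. The longest runs held 8 genes each, on chromosome 1 (160938884 to 161468296, with Or52ab2 and Or52a20 among 33 listed genes, and 163929128 to 164379846), chromosome 3 (72715665 to 73218369, with Or4a66) and chromosome 8 (42339268 to 43009719). In a span of 6 listed genes on chromosome 10 (61035083 to 61307663), 5 met the rule. Coordinates are as in the deposited lists, and their genome build is not given in the sources used here. Chromosomes 1, 3 and 7 held 77, 56 and 38 of the genes (18.3%, 13.3% and 9.03%), against 14.1%, 8.74% and 6.62% of all listed genes. Neighbouring receptors can share probe sequence, so these genes are not independent observations, and how far probes matched several copies was not tested.

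The mast cell protease locus was bound at most of its genes. The proteases are serine enzymes stored in the granules of mast cells and related blood cells. Of 7 listed genes between 34270480 and 34624798 on chromosome 15, 6 met the rule: Vch (listed as Mcpt1), Mcpt8, Mcpt8l2, Mcpt9, Mcpt10 and Ctsg, the last coding for cathepsin G of neutrophils. All 7 genes of the mast cell protease family in the lists had a peak on at least 6 arrays of 6h, and 5 met the rule. Over all listed genes these shares were 14.8% and 2.93%. This family was made a list after its values were seen.

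Mcpt10 had the highest signal of the locus. Its lowest, median and highest signals were -0.16, 0.28 and 0.63 at 0h, -0.038, 0.19 and 0.51 at 1h and 0.48, 0.83 and 1.02 at 6h, where the mean was 0.80 ± 0.22 (SD, n = 8). Mcpt8 averaged 0.73 ± 0.22 with all 8 arrays of 6h above the rest. Mcpt8l2 and Mcpt9 share 1 window and so 1 value, 0.69 ± 0.26, and Vch and Ctsg averaged 0.56 ± 0.15 and 0.40 ± 0.28. For Ctsg the arrays of 6h ran as low as -0.12, and 4 of the 8 lay inside the earlier range.

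Ctsg was one of several immune cell genes. Ms4a1, which codes for the B cell surface protein CD20, had peaks on all 8 arrays of 6h, with signals of -0.27, 0.23 and 0.52 at 0h, -0.023, 0.15 and 0.44 at 1h and 0.34, 0.64 and 0.89 at 6h. Cd8b, a chain of the CD8 co-receptor of cytotoxic T cells, had -0.52, 0.11 and 0.54 at 0h, 0.056, 0.23 and 0.46 at 1h and 0.052, 0.72 and 1.01 at 6h. Cd163, the haemoglobin scavenger receptor of macrophages, had -0.078, 0.036 and 0.21 at 0h, -0.091, 0.11 and 0.39 at 1h and 0.29, 0.52 and 0.71 at 6h. In all 3 genes some 6h arrays lay inside the earlier range, 3 of them in Cd8b and 1 in Cd163. Cd163 was the 1 gene of 9 listed Kupffer cell and macrophage markers that met the rule (11.1%, against 2.93% of all listed genes). A second, Cd68, had peaks on 6 arrays of 6h but also on 3 of 0h and 6 of 1h. Thus 2 of the 9 (22.2%) were bound on at least 6 arrays of 6h, against 14.8% of all listed genes.

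Of the 18 lymphocyte and neutrophil markers in the peak lists, 7 (38.9%) had a peak on at least 6 arrays of 6h, against 14.8% of all listed genes. Of these, Cd3d, Cd3g, Cd8a, Gzma and Gzmb were listed too often earlier to meet the rule. Ms4a1 and Cd8b met it (11.1% of the list, against 2.93% of all listed genes). Natural killer cells use killer lectins to recognise class I proteins. The list of killer lectins and class I genes, which also takes in the lectin gene Clec4a1, gave 8 of 100 (8.00%, against 2.93%). They were Klrc3, Klrc1, Clec4a1, RT1-Cl, Ly49si1, Ly49i5, Klrd1 and Klra22. Klrc3 averaged 0.58 ± 0.10 and Klrc1 0.55 ± 0.12 at 6h (SD, n = 8). Ighg, the gamma heavy chain of immunoglobulin, had peaks on all 8 arrays of 6h and none before, with signals of 0.47, 0.63 and 0.83 at 6h, 0.0012, 0.23 and 0.40 at 0h and -0.17, 0.15 and 0.40 at 1h. Its groups did not overlap, although its window lay outside the common place of its peaks. The cytokine gene Il9, which acts on mast cells and T cells, was the 1 gene of 62 chemokines and interleukins, with a mean of 0.47 ± 0.099. That is 1.61% of this list, below the 2.93% of all listed genes.

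Defensins, antimicrobial peptides of epithelia and granulocytes, gave 6 of 48 listed genes. Defb105b (Defb12) had peaks on all 8 arrays of 6h and averaged 0.51 ± 0.19, Defa7 averaged 0.51 ± 0.15, Defa11 0.48 ± 0.16 and Defb22 0.44 ± 0.13 (SD, n = 8 each). Keratin genes gave 2 of 63, Krt72 at 0.48 ± 0.22 and Krtap16-5 at 0.46 ± 0.12. These shares compare with 2.93% of all listed genes.

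Neurotransmitter receptors gave 9 of 102 listed genes (8.82%, against 2.93% of all listed genes). Chrnb3, a subunit of nicotinic acetylcholine receptors, had the highest mean 6h signal of them, with signals of -0.34, 0.11 and 0.26 at 0h, -0.41, 0.18 and 0.40 at 1h and 0.47, 0.61 and 0.69 at 6h and no overlap. Gabra2, a GABA-A receptor subunit, had -0.22, 0.069 and 0.32 at 0h, -0.12, 0.077 and 0.29 at 1h and 0.44, 0.55 and 0.78 at 6h, also without overlap, from peaks at a median of -3042 bp. The glutamate receptor gene Grm8 averaged 0.56 ± 0.25 and the serotonin receptor gene Htr2a 0.51 ± 0.24 at 6h, both with overlap. The nicotinic subunit genes Chrna9 and Chrna6, the neuropeptide Y receptor gene Npy2r, the GABA-A subunit gene Gabrg1 and the serotonin receptor gene Htr4 were also among the 9.

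Of the other fixed families, ion channels gave 0 of 137 listed genes. A peak on at least 6 arrays of 6h was listed for 18 of the 137 (13.1%), against 14.8% of all listed genes. The rest, cytochrome P450 genes aside, gave 1 to 3 genes each, to be read against 2.93% of all listed genes. Protocadherins, adhesion proteins of neurons, gave 2 of 45 (4.44%), Pcdha4 (Pcdha5) at 0.37 ± 0.16 and Pcdhga2 at 0.29 ± 0.12, although 29 of the 45 had a peak on at least 6 arrays of 6h. Solute carriers gave 2 of 307 (0.651%), the amino acid transporter genes Slc7a13 and Slc7a12 at 0.44 ± 0.16 and 0.29 ± 0.19. Zinc finger genes gave 3 of 198 (1.52%), Zbtb1, Zfp652 (Znf652) and Zfp385b at 0.45 ± 0.19, 0.37 ± 0.24 and 0.31 ± 0.21. Ribosomal proteins gave Rpl32 of 139 (0.719%) at 0.44 ± 0.24, and homeobox factors gave Pou1f1 of 65 (1.54%), a pituitary transcription factor, at 0.42 ± 0.085.

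Outside these families 155 genes were on no list. Some are active in many cell types. Mat2b (MGC94725), the regulatory subunit of a methionine adenosyltransferase, had signals of -0.067, 0.15 and 0.59 at 0h, -0.10, 0.14 and 0.64 at 1h and 0.36, 0.85 and 1.28 at 6h. Morf4l1, a subunit of histone acetyltransferase complexes, had -0.25, -0.087 and 0.28 at 0h, -0.44, 0.0074 and 0.18 at 1h and 0.50, 0.84 and 1.07 at 6h, with all 8 arrays of 6h above the rest. The deposited lists place the Morf4l1 peaks on chromosome 13, whereas RefSeq has the gene on chromosome 8, so the signal may belong to another copy. The same held for Rpl32, placed on chromosome 6 in the lists and 4 in RefSeq, and for 5 of the 409 genes matched to RefSeq in all. Trmt10b (Rg9mtd3), a tRNA methyltransferase, had 0.018, 0.18 and 0.27 at 0h, -0.014, 0.26 and 0.48 at 1h and 0.44, 0.75 and 0.97 at 6h, with 2 arrays of 6h inside the earlier range.

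Of the genes bound on all 8 arrays of 6h and none before, several are known from other tissues. Adgrf5 (Gpr116), which regulates lung surfactant, had signals of -0.66, -0.057 and 0.33 at 0h, 0.095, 0.18 and 0.71 at 1h and 0.38, 0.67 and 0.82 at 6h. A single carbohydrate array of 1h reached into the 6h range. Mstn, which codes for myostatin, an inhibitor of muscle growth, averaged 0.53 ± 0.17 at 6h. The phospholipase gene Pla2g4c averaged 0.55 ± 0.18, and Tmem9, which codes for a lysosomal membrane protein, 0.50 ± 0.14, from peaks at a median of -2949 bp. All 3 overlapped the earlier arrays. Genes for peptide messengers were also present, picked here after their values were seen: Gcg (glucagon), Ins1 (insulin), Pmch (melanin-concentrating hormone) and Btc (betacellulin, a ligand of the epidermal growth factor receptor) averaged 0.42 ± 0.13, 0.39 ± 0.12, 0.36 ± 0.15 and 0.45 ± 0.15 at 6h (SD, n = 8 each).

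A listed peak did not always mean a high promoter signal. Fbxo3, an F-box subunit of a ubiquitin ligase, had the lowest 6h mean of the group. Its signals were 0.31, 0.36 and 0.55 at 0h, 0.22, 0.33 and 0.50 at 1h and -0.18, 0.032 and 0.32 at 6h. Its peaks on 7 arrays of 6h lay outside the window that gave these values. Pde4b (a cAMP phosphodiesterase) and Or12j3 (Olr297) averaged 0.22 ± 0.17 and 0.23 ± 0.16, also from windows outside the common place of the peaks. Just outside the rule, with peaks on 5 arrays of 6h, Rhoh, Or5w1 (Olr577) and Vom1r85 (V1rc44) averaged 0.67 ± 0.22, 0.61 ± 0.24 and 0.59 ± 0.15, above the group's median of 0.47. In all, 302 genes had peaks at a common place on at least 6 arrays of 6h, 70 of them on all 8, and the window overlapped the common place for 334.

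None of the 51 listed textbook targets of NF-kB met the rule. At 2.93% over all listed genes a list of this size would hold 1 or 2 such genes, so nothing is read from the absence. Of the targets, 3 of the 51 had a peak on at least 6 arrays of 6h (5.88%, against 14.8% of all listed genes). These were Plau, the urokinase gene, Sod2, mitochondrial superoxide dismutase, and Vcam1, an adhesion molecule of endothelium. Each had been listed on more than 1 array of 0h or 1h: Plau on 2 arrays of 0h and 3 of 1h, Sod2 on 1 and 4, and Vcam1 on 3 and 1. None of 35 genes of TNF, cytokine and JAK-STAT signalling met the rule, and Jak2 and Il10rb, for example, were bound on at least 6 arrays of 6h but also earlier.

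Genes of the regenerating hepatocyte were looked up in the same way. None of 33 immediate early genes, 28 cell cycle genes, 23 acute phase genes, 13 hepatocyte markers or 59 cytochrome P450 genes met the rule, and these lists too are small against a share of 2.93%. No immediate early gene had a peak on 6 or more arrays of 6h. At that frequency the cell cycle list had E2f3, the acute phase list had Hpx, and the hepatocyte markers had Cyp3a2, G6pc1 and Hnf4a, all of them also listed at 0h and 1h. Those 3 were 23.1% of the hepatocyte markers, against 14.8% of all listed genes with a peak on at least 6 arrays of 6h. E2f3 was 3.57% of the cell cycle list and Hpx 4.35% of the acute phase list. Of the 59 cytochrome P450 genes, 5 (8.47%) had a peak on that many arrays of 6h. Stellate cell, sinusoidal endothelial and cholangiocyte markers gave 0 of 10, 0 of 6 and 0 of 5 under the rule. Peaks on at least 6 arrays of 6h were listed for 2 of the 10 stellate cell markers (20.0%), Ngfr on 8 arrays and Reln on 7. The same was true of 1 of the 6 endothelial markers (16.7%), Flt4 on 7 arrays, and of none of the 5 cholangiocyte markers. Ngfr, Reln and Flt4 were each listed on more than 1 earlier array.

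Peaks of these genes lay nearer the start than other peaks of 6h, most of all those of the olfactory receptors. Their 3862 peaks at 6h were centred at a median of -250 bp from the start, and 35.9% lay within 500 bp of it. For the 40520 other peaks of 6h the median was -1462 bp, and 20.2% lay within 500 bp. For the olfactory receptors the median was 272 bp downstream of the start and 41.7% lay within 500 bp, so many of their peaks fell inside the transcribed gene. For the genes that were no chemosensory receptor the median was -1061 bp, and 28.6% lay within 500 bp. Peak width was 583 bp for these genes and 559 bp for the others in the median. Distances, widths and peak statistics are the authors' own, with a median false discovery rate of 0.0638 for these peaks and 0.0830 for the others.

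The promoters were rich in A and T. RefSeq promoters were found for 335 of the 421 genes (79.6%), too few for a check of the whole group, so the values describe those 335. Median GC content was 39.3% in these, against 57.7% in the 11606 listed genes with a promoter. The genes bound mainly at 1h had 59.7% (373 of 478 with a promoter). Few CG dinucleotides (3 or fewer in 300 bases) were present in 67.5% of the 335 and 19.6% of all listed genes. The olfactory receptors of the group, 168 of 195 with a promoter, had a median of 35.0%, against 35.3% over all listed olfactory receptors. The other genes of the group, 167 of 226 with a promoter, had 48.7%. The genes just outside the rule, 167 of 210 with a promoter, had a median of 45%, and 50.9% of them had few CG dinucleotides.

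The kB consensus was found in 16 of the 335 promoters (4.78%), against 11.5% of the listed genes and 10.5% of all 33469 RefSeq promoters. TATAAA was found in 31.9% of the 335, against 12.3% of the listed genes and 14.2% of all RefSeq promoters. Of the genes bound on all 8 arrays of 6h, 6 of 75 with a promoter (8%) held a kB match and 33.3% held TATAAA. Of the genes just outside the rule, 6.59% held a kB match and 27.5% held TATAAA. The kB consensus has fixed G and C letters and TATAAA has none, and promoters of equal GC content were not compared. A match describes letters in a 300-base window, which covers the peaks of only part of the genes. With the start in the lists taken as the RefSeq start, which was not checked, the common place of the peaks touched this window in 117 of the 335.

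Signal followed GC content differently by time. Over 9658 promoters with a single gene and a RefSeq sequence, the correlation of GC content with signal across promoters was negative on all 8 arrays of 6h (Pearson -0.31 to -0.15) and positive on all 6 of 1h (0.19 to 0.44). At 0h it was negative on ethanol replicate 3 (-0.12) and carbohydrate replicate 3 (-0.077), the arrays that held 106 and 132 of the genes, and positive on the other 4 (0.11 to 0.26). Promoters share these arrays and their hybridisation, and the correlations are a description. The 10% of promoters with the lowest GC content had a median signal of 0.18 at 0h, 0.062 at 1h and 0.42 at 6h. The 10% with the highest had 0.22, 0.34 and 0.23. The rule was met by 15.7% of those with the lowest GC content and 0.524% of those with the highest. Base composition thus moved with the group, and its part in the signal was not tested.

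**Figure D4:**
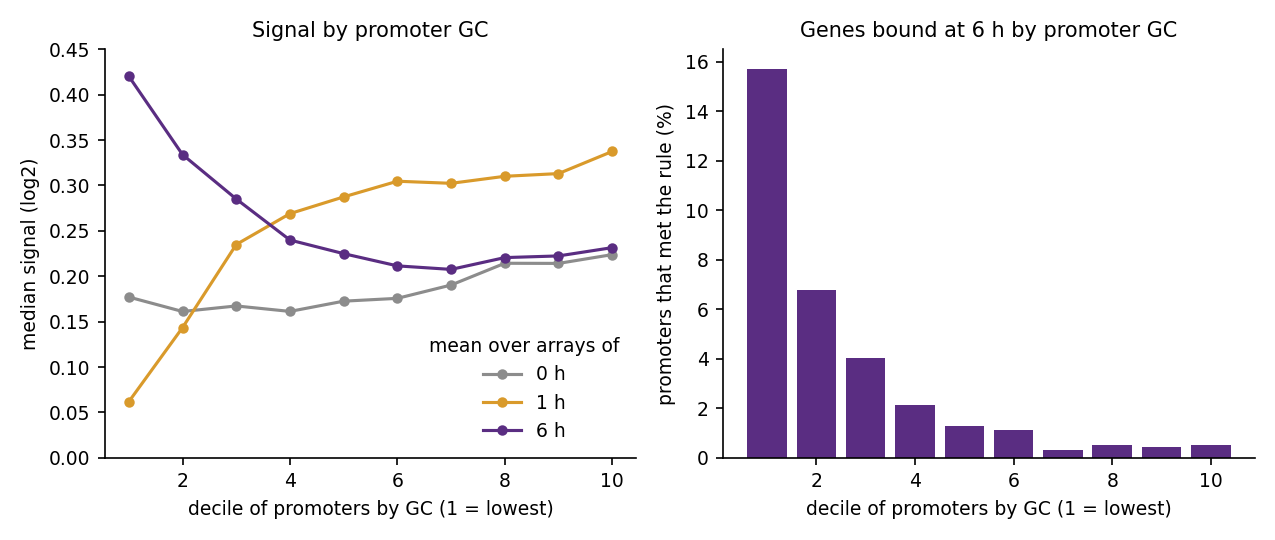
Left, median promoter signal (log2) at 0, 1 and 6 hours by decile of promoters ordered by GC content. Right, share of promoters in each decile that met the rule (%). The 6h line is highest, at 0.42, in the lowest decile, where the 1h line is lowest, at 0.062.

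Differences between single arrays of one slide or of one rat are given next. The rule chose the genes on the peaks of these same arrays, which fixes the direction, so the values are a description and do not separate time from array run. On the slide of carbohydrate 6h replicate 2, that array was compared with the mean of the 2 arrays of 1h. The genes had a median difference of 0.34, with 407 of 420 higher at 6h. Over all 14540 promoters the median was 0.046, with 8297 higher. On the slide of ethanol 6h replicate 1 the genes' median was 0.30, with 390 of 420 higher. Over all promoters it was -0.064, with 6100 higher. In the rat that gave both carbohydrate arrays, 6h replicate 2 minus 0h replicate 3 had a median of 0.19 (338 of 420 higher). Over all promoters it was 0.043 (8184 higher). In the ethanol rat, 6h replicate 1 minus 0h replicate 3 had a median of 0.14 (339 of 420 higher). Over all promoters it was 0.019 (7844 higher). Over all arrays the 6h minus 0h difference had a median of 0.35, and without replicate 3 of both groups of 0h it was 0.43.

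The diets were compared at 6h, which asks whether ethanol feeding altered the late binding that both groups shared. The rule kept only genes with peaks in both diets, which limits the differences that could be found among them. Signals tended to be lower in ethanol livers, but no gene of the group passed the test, and neither did any other promoter. The median difference, ethanol minus carbohydrate, was -0.13 over the genes and -0.11 over all 14540 promoters, with 55 of the 420 genes higher and 365 lower. That is 86.9% of the genes lower, against 80.3% of all promoters (11678), so the direction was shared by most of the array. With quantile-normalised arrays the genes' median was 0.0088, and with the mean of the whole tiled region it was 0.022, so its direction depended on the scaling and on how a promoter was summarised. It was below 0 in 17 of the 19 alternatives tried. None of the 414 separate windows of the genes passed an adjusted p of 0.05 (limma, Benjamini-Hochberg over all promoters; 0.0% of all promoters passed). At an unadjusted p under 0.05 there were 56 windows (13.5%), all lower in ethanol, against 10.9% of all promoters. The median standard error of a difference was 0.12. With arrays weighted by their quality, in a fit that stopped before converging, 92 of the 417 promoters that hold a start of these genes passed. So did 2751 of all 14540 promoters. Of these, 91 and 2648 were lower in ethanol.

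Or2a14 had the lowest difference. Its signals were 0.65, 0.18, 0.79 and 0.53 in ethanol livers, against 1.23, 0.83, 1.06 and 0.97 in carbohydrate livers. The groups did not overlap, and the difference was -0.49 with a standard error of 0.15 and an adjusted p of 0.429 in limma. Cd8b had 0.26, 0.052, 0.75 and 0.40 in ethanol livers and 0.79, 0.70, 0.78 and 1.01 in carbohydrate livers, a difference of -0.45 (SE 0.16), with 1 ethanol array inside the carbohydrate range. Wfdc15b, which codes for a protease inhibitor-like protein, had 0.32, -0.01, 0.63 and 0.67 in ethanol livers and 0.98, 0.75, 0.70 and 0.92 in carbohydrate livers, a difference of -0.43 (SE 0.15) without overlap.

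In the other direction the differences were smaller. Suv39h1, a histone methyltransferase of heterochromatin, had 1.11, 0.84, 0.50 and 0.76 in ethanol livers and 0.70, 0.70, 0.31 and 0.38 in carbohydrate livers, a difference of 0.28 (SE 0.18). Dync1li1, a dynein motor subunit, had 0.88, 0.80, 0.64 and 0.79 in ethanol livers and 0.59, 0.64, 0.55 and 0.46 in carbohydrate livers, a difference of 0.22 (SE 0.14). Ly49i5, a killer cell receptor, had 0.52, 0.54, 0.63 and 0.36 in ethanol livers and 0.34, 0.20, 0.32 and 0.42 in carbohydrate livers, a difference of 0.19 (SE 0.10). The groups overlapped in Suv39h1, Dync1li1 and Ly49i5, and none of the 3 passed the test, with adjusted p values in limma of 0.534, 0.521 and 0.471.

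**Figure D5:**
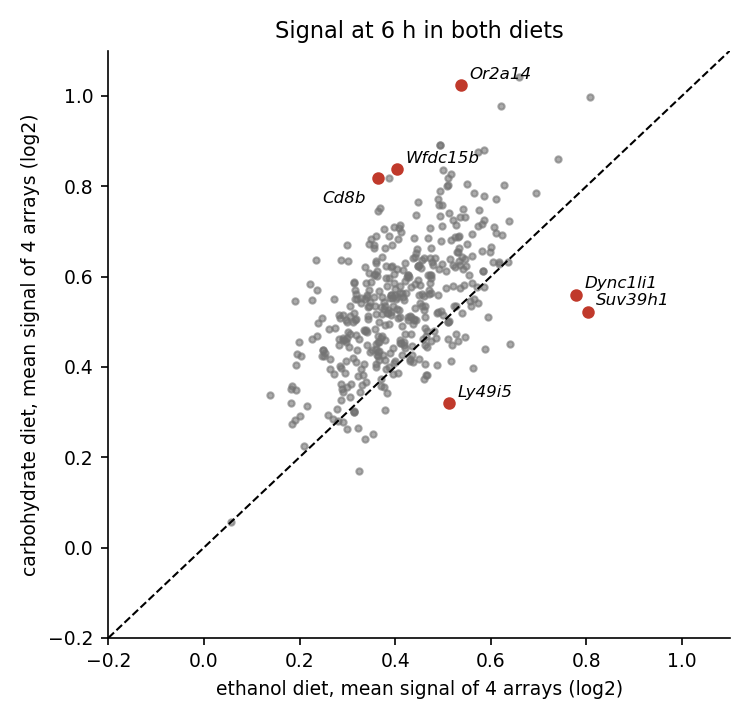
Mean promoter signal at 6h in ethanol livers (x axis, log2, 4 arrays) and carbohydrate livers (y axis, log2, 4 arrays) for 420 genes, with a dashed line of equal signal and the 3 highest and 3 lowest diet differences in red. Most points, 365 (86.9%), lie above the line and 55 below, against 80.3% of all promoters lower in ethanol livers.

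The mast cell proteases, a family listed after its values were seen, had lower values in ethanol livers, as 80.3% of all promoters did, and none passed the test. Mcpt10 had 0.48, 0.52, 0.78 and 0.71 in ethanol livers, against 0.89, 1.02, 1.02 and 0.98 in carbohydrate livers, with no overlap and a difference of -0.36 (SE 0.15, adjusted p 0.429, limma). Mcpt8l2 and Mcpt9 differed by -0.40 (SE 0.14), Ctsg by -0.36 (SE 0.14), Mcpt8 by -0.29 (SE 0.14) and Vch by -0.17 (SE 0.12). Mat2b had 0.36, 0.82, 0.88 and 0.58 in ethanol livers, against 1.08, 0.78, 1.02 and 1.28 in carbohydrate livers, a difference of -0.38 (SE 0.15). The olfactory receptors as a group had a median difference of -0.12, with 25 of 195 higher in ethanol.

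The change over time was compared between the diets in the same fit. The ethanol minus carbohydrate difference in the 6h against 0h change had a median of -0.19 over the genes and -0.17 over all promoters, and in the 6h against 1h change -0.13 and -0.14. No promoter passed an adjusted p of 0.05 in either (limma; 0.0% in both). At an unadjusted p under 0.05 there were 60 of the genes' 414 windows (14.5%), against 13.4% of all promoters, for the change since 0h. For the change since 1h there were 32 (7.73%), against 14.1% of all promoters. The standard error was 0.19 in the median, larger than for the diets at 6h alone. Differences of the size seen in most genes could not be told from the spread between arrays.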

How the data were processed

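Per the labels' protocols, chromatin from frozen liver was immunoprecipitated with a p65 antibody and hybridised to 2-colour promoter tiling arrays (1 sample an array, 16 rats, 4 of them with 2 arrays). The labels name both input and IgG DNA for the second channel, so the nature of the compared DNA is not settled. The deposited table gives a log2 ratio for each of 713735 probes, with scale and centring not stated. The authors' deposited peak lists give a score for every peak of an array and its false discovery rate (a q-value, at most 0.200), with the nearest gene and its distance. The peak caller, its version and the genome build are not given in the sources used here. Between 99.9% and 100% of listed peaks lay below 0 in the deposited log2 table, so values were turned by -1; this direction is likely, not stated.

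Each array was centred on its median. Probes within 1000 bp formed tiled regions, and a promoter's signal was the mean of its 500 bp window with the highest mean over all 20 arrays (at least 4 probes), giving 14540 promoters. Pairs of genes in 1 region share a value. Adcyap1 had no window. Diets were tested with limma 3.58.1 in R 4.3.3 (lmFit, eBayes with trend, all 6 groups in one fit, two-sided, Benjamini-Hochberg over all promoters), checked on simulated data. Arrays of one rat were treated as separate samples. The number of arrays limits the precision. The deviations of 6h samples with the same replicate number had correlations of -0.20, -0.12, -0.22 and 0.26 for replicates 1 to 4. The arrays of replicate 4 were on the same slide. These mixed values do not settle whether the replicate numbers pair the samples. Which rats were pair-fed together is not given in the labels.

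Gene names were updated through RefSeq (GRCr8) for 409 of the 421 genes, 230 of which changed symbol. Among all names 18 were written as dates, none of them in the group. Sequences are from RefSeq. The genes and the lists were chosen with earlier results of these data known. Named genes are the 12 highest of those bound on all 8 arrays of 6h and none before, the 10 with the highest 6h signal, the 3 highest and 3 lowest diet differences, up to 4 a list, the 3 lowest 6h signals and the 3 highest just outside the rule; others are stated as picked later. Other software was Python 3.11.15 with pandas 2.3.3, numpy 2.4.6, scipy 1.17.1 and matplotlib 3.10.9.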

Additional observations from a re-analysis of the deposited data

Results flagged for a closer look

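Within groups of 4 arrays, 126 sets of values were looked at for a single array far from the other 3, and 6 were found, close to the 1 in 20 that chance gives. In carbohydrate livers at 6h, Or4a66 was low on replicate 3, at 0.37 against 0.59 to 0.60 on the other 3. Defb105b was high on replicate 4, at 0.89 against 0.50 to 0.54. Replicate 1, the array in a run of its own, was low for Pcdhga2 at 0.048 (others 0.38 to 0.40) and for Rpl32 at 0.52 (others 0.67 to 0.70). In ethanol livers at 6h, Tmem9 was high on replicate 3 at 0.57 (others 0.32 to 0.36), and Slc7a12 was high on replicate 2 at 0.64 (others 0.19 to 0.23).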

How the results depend on the processing

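The number of genes that met the rule depended on its settings. It was 248 with only peaks at a false discovery rate of at most 0.05 (67 of the 421 among them), 395 at a limit of 0.1 (164 among them), 234 when at least 7 arrays of 6h were required, 108 with no peak at 0h or 1h, and 1025 without replicate 3 of both groups of 0h, a setting chosen after seeing the data. Leaving out 1 array of 6h with 6 still required gave 254 to 317, by construction fewer; it was lowest without ethanol 6h replicate 3 (254) and carbohydrate 6h replicate 4 (255), 3 (266) or 2 (277).

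No promoter passed in any of the 3 diet tests (limma; 1590, 1954 and 2044 had an unadjusted p under 0.05). The genes' starts lie in 417 of the 14540 promoters tested. For ethanol against carbohydrate at 6h, 12 passed when the compared arrays were fitted alone. With array weights, whose fit stopped before converging, 2751 passed, 2648 of them lower in ethanol. Of the 2751, 92 were promoters of these genes, 91 of them lower. For the 6h against 0h change, array weights gave 2259, 2210 of them below 0. Of the 2259, 87 were of these genes, all below 0. Leaving out 1 array gave 0 to 28, the 28 without carbohydrate 0h replicate 3. For the 6h against 1h change, array run as a term gave 224 (1 of these genes), array weights 740 (4), and leaving out 1 array 0 to 578 (0 to 1 of these genes), the 578 without ethanol 1h replicate 1. Rats of the 2 diets whose numbers in the array names are 2 apart (8 such pairs, 4 of them at 6h) may have been fed together, which the labels do not state; with these pairs as a block, a setting chosen after seeing the data, this test gave 171 (2 of these genes) and the other 2 gave 0. With the replicate number as a block, all 3 tests gave 0 calls. The other settings, with the rat as a random block (chosen after seeing the data) among them, gave 0 calls, and the cause of these differences was not tested. With 3 or 4 arrays a group, small differences may go undetected.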
